A study of Homo sapiens with 2 samples.

Results

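The replication-dependent histone genes on 6p22 were followed in ATAC-seq of CAL27, a human cell line grown from a tongue tumour of squamous type. They were taken as the protein-coding genes between 25700000 and 27950000 on chromosome 6 (hg38, RefSeq) whose symbols start with H1-, H2AC, H2BC, H3C or H4C. This gave 55 of 19974 protein-coding genes, made up of 6 H1, 12 H2A, 15 H2B, 10 H3 and 12 H4 genes. ATAC-seq uses the Tn5 transposase to cut and tag DNA that is not covered by nucleosomes. The study holds 1 library of CAL27 cells given 10 mM lactate for 24 h and 1 library of untreated CAL27 cells, and asks what lactate does to the chromatin of this tumour. Neither library carries a label for a second agent or a genetic change.

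Histone genes of this kind supply the core histones H2A, H2B, H3 and H4 and the linker histone H1 that package newly copied DNA. They are short, mostly lack introns, and end their messages in a stem-loop in place of a poly(A) tail. They are transcribed in S phase at the histone locus body, a nuclear compartment built around NPAT on these clusters, and many H2A and H2B genes stand head to head and share a promoter. The tissue-specific members H1-6, H2AC1 and H2BC1 are made in the testis.

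The lactate library held 15401276 tags and the untreated library 18248413. With 1 library per group there was no replicate, so no test was made and every value compares these 2 libraries. Intervals are 95% intervals. Those of tag ratios and tag shares cover counting error only. Those of counts of genes or regions treat each as an independent draw, which neighbouring genes and regions are not. They are no test of a difference. Most markers of squamous epithelium were open, with 13 of 16 open near a gene end in both libraries, against 61.8% of all protein-coding genes. KRT6B was open there in the lactate library alone. TP63 and KRT14 had no open region at their outer ends. None of 5 endothelial markers had one, while 3 of 6 leukocyte and 3 of 6 fibroblast markers did.

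The promoters below are RefSeq sequences (GRCh38.p14, chromosome 6), each running from 250 bases before to 50 after the annotated start. They show the gene next to the tallest region, the genes with the highest and the lowest lactate-to-untreated ratio, and 2 genes without any region. H4C6 was added to this choice after the values were seen. Capitals mark exact matches, on either strand, to 5 motifs. The TATA box was searched as TATAAA, which can overlap its own reverse complement, and no motif contains another. The CCAAT box is bound by NF-Y and was searched by those 5 letters. The octamer, ATTTGCAT, is bound by POU2F1. The letters GGTCC belong to the H4 promoter element bound by HINFP. TTTCGCGC is a site of the E2F kind.

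H2BC12, chr6:27146809-27147108, minus strand, tallest region: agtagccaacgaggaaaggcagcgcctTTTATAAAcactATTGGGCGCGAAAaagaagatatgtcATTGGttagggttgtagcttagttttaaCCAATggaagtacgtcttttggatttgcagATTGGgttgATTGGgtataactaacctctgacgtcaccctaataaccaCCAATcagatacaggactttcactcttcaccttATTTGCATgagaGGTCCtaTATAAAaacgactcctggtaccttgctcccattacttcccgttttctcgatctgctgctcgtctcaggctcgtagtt
H1-4, chr6:26156079-26156378, plus strand, highest ratio: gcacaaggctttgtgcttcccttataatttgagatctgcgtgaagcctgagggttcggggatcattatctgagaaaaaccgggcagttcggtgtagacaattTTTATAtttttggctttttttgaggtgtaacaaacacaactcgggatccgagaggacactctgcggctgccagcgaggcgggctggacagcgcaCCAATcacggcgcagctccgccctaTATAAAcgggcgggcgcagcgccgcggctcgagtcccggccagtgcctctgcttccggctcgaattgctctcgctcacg
H4C9, chr6:27139032-27139331, plus strand, lowest ratio: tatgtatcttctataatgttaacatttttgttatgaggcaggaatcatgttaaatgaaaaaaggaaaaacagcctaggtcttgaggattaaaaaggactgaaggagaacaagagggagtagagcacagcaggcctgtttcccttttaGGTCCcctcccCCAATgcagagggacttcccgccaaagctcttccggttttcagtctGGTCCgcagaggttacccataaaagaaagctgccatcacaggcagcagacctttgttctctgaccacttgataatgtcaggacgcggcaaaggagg
H2BC1, chr6:25726527-25726826, plus strand, no region: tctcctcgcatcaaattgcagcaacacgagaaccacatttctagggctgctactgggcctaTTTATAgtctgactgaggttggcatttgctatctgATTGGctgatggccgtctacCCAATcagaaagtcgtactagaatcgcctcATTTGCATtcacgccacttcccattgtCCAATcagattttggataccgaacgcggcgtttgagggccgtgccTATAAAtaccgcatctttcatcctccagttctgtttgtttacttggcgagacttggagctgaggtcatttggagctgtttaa
H4C6, chr6:26240143-26240442, plus strand, no region: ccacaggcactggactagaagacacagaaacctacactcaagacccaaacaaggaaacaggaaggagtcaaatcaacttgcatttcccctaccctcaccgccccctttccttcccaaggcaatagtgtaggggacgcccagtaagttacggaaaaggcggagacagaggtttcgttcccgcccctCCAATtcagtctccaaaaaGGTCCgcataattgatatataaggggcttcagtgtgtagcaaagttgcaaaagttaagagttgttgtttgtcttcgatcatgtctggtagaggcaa

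The families differed in these motifs. The promoter table matched 50 of the 55 genes, with 54 promoters, and lacked H2AC12, H3C11, H3C12, H4C1 and H4C3. Their median GC content was 42.3%, against 58.7% in all 35116 promoters of the table, and no comparison was made with promoters of similar GC content. TATAAA was found in 36 of the 54 (66.7%), against 11.5% of all promoters in the table. The octamer was found in 9 of 11 H2A and 13 of 17 H2B promoters, in 1 of 10 H3 promoters and in no H1 or H4 promoter, against 1.77% of all promoters. CCAAT was present in every H1, H2A, H2B and H3 promoter but in 3 of 10 H4 promoters, against 34.6% of all. GGTCC was found in 9 of 10 H4 promoters and no H2A promoter, against 46.3% of all. TTTCGCGC was found in 5 of 11 H2A, 6 of 17 H2B and 1 of 10 H3 promoters, against 0.515% of all. Divergent H2A and H2B genes share bases in these windows, so their promoters are not separate observations. A match is a description of letters and not a binding site.

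**Figure D1:**
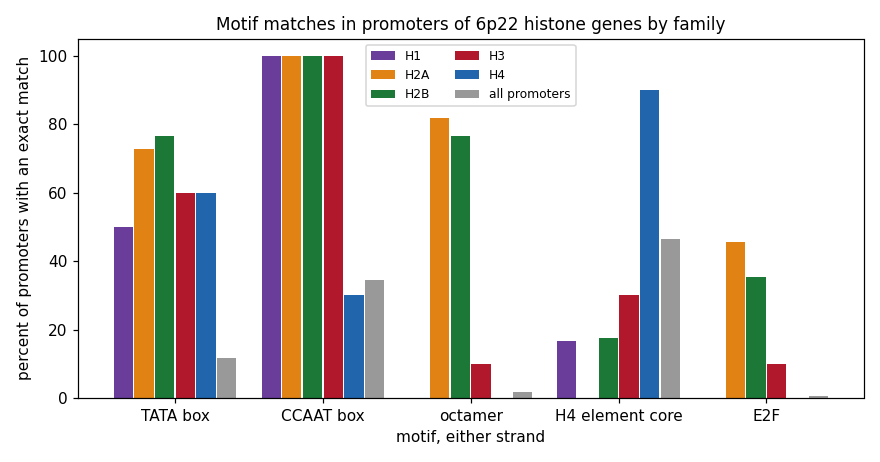
Percent of promoters (vertical axis) with an exact match to each motif on either strand (horizontal axis), for the 5 histone families of 6p22 and for all 35116 promoters of the RefSeq table (grey). The octamer bars stand at 81.8% for H2A and 76.5% for H2B, and the GGTCC bar at 90% for H4.

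Nearly every somatic histone gene was open in both libraries. A region within 1 kb of either annotated end, called a gene-end region here, was listed in both libraries for 50 of the 55 genes (90.9%, exact binomial interval 80.0 to 97.0). Among all protein-coding genes this share was 61.8%. No histone gene had such a region in the lactate library alone, against 6.09% of all genes, and none in the untreated library alone, against 0.836%. The other 5 genes (9.09%) had one in neither library, against 31.3% of all genes.

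The 5 genes without a region were the testis genes H1-6, H2AC1 and H2BC1 and the H4 genes H4C6 and H4C7. H2AC1 and H2BC1 form a divergent pair at the low-coordinate edge of the stretch. The nearest region lay 5290 bp from H2AC1 in the lactate library and 27924 bp away in the untreated library. H1-6, the testis linker histone gene, lies inside the main cluster, with the nearest regions 2380 bp away in the lactate and 2593 bp away in the untreated library. H4C6 was 2302 bp from the nearest lactate region and 2268 bp from the nearest untreated one. For H4C7 the distances were 2696 bp in the lactate library and 2675 bp in the untreated library. The H2BC1 promoter printed above holds a TATA box, CCAAT boxes and the octamer, as do promoters of open H2B genes such as H2BC12.

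The open genes fell into 3 dense groups. The first, from H1-1 to H4C8 (chr6:26017032-26285534), holds 32 genes, with 40 lactate and 42 untreated regions covering 10.6% of its length in the lactate and 10.4% in the untreated library. The second, from H2BC11 to H2AC12 (chr6:27132316-27147562), holds 5 genes in 15.2 kb, with 3 lactate and 6 untreated regions. The third, from H2BC13 to H2BC17 (chr6:27807479-27893891), holds 16 genes, with 15 regions in each library covering 12.7% in the lactate and 12.2% in the untreated library. Outside these groups and the H2AC1 and H2BC1 pair, regions covered 4.29% of the stretch in the lactate library and 4.12% in the untreated library.

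Open chromatin covered most of the length of most short histone genes. Of the 45 histone genes of at most 1 kb with a gene-end region, 43 had at least 50% of their length inside regions in the lactate library, and the median covered share was 89.4%. In the untreated library 41 of 45 did, with a median of 89.5%. Among other protein-coding genes of this kind, 27.3% in the lactate and 28% in the untreated library had at least 50% covered. The linker histone gene H1-5 was covered over 52.2% in the lactate library and 0% in the untreated library, and H1-1 over 41.1% in the lactate and 25.9% in the untreated library. The other genes had median covered shares of 15.1% in the lactate library (88 genes) and 10.4% in the untreated library (82 genes).

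Overlapping regions of both lists were merged, giving 55 merged regions next to the histone genes out of 15826 at gene ends in all. Of the 55, 26 lay next to more than 1 histone gene and were counted once. Both libraries listed 46 of them. Height is given as the pileup at the highest summit, in extended tags.

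Most histone regions were taller than the median gene-end region. Over the 46 regions the lactate pileup ran from 18 to 141 tags with a median of 67, and the untreated pileup from 19 to 93 tags with a median of 45.5. All 12565 gene-end regions listed in both libraries had medians of 48 tags in the lactate and 31 tags in the untreated library. In either library, 33 of the 46 histone regions stood above these medians.

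Most of the tallest regions lay at H2A and H2B pairs. Of the 10 tallest by the tags of both libraries together, 6 were next to both an H2A and an H2B gene and 9 next to an H2B gene. The region of H2AC12 and H2BC12 (chr6:27146092-27147671) had 140 lactate and 93 untreated tags. That of H2AC11 and H2BC11 (chr6:27132213-27133529) had 141 lactate and 89 untreated tags. The region of H2AC8 and H2BC8 (chr6:26215209-26217444) had 132 lactate and 86 untreated tags. All 3 were taller in the lactate library.

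The other divergent pairs among the 10 were lower in tags. The region of H2AC6 and H2BC4 had 110 lactate and 86 untreated tags, that of H2AC17 and H2BC17 had 108 lactate and 88 untreated tags, and that of H2AC13 and H2BC13 had 103 lactate and 58 untreated tags. The remaining 4 lay at H1-4 and H2BC5 (98 lactate and 92 untreated tags), at H2AC4 and H3C2 (107 lactate and 65 untreated), at H2BC10 (98 lactate and 70 untreated) and at H2BC3 and H3C3 (103 lactate and 56 untreated). Over all 10 regions next to both an H2A and an H2B gene the median was 105.5 lactate and 75 untreated tags. The 36 other histone regions had medians of 64.5 lactate and 38 untreated tags.

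**Figure D2:**
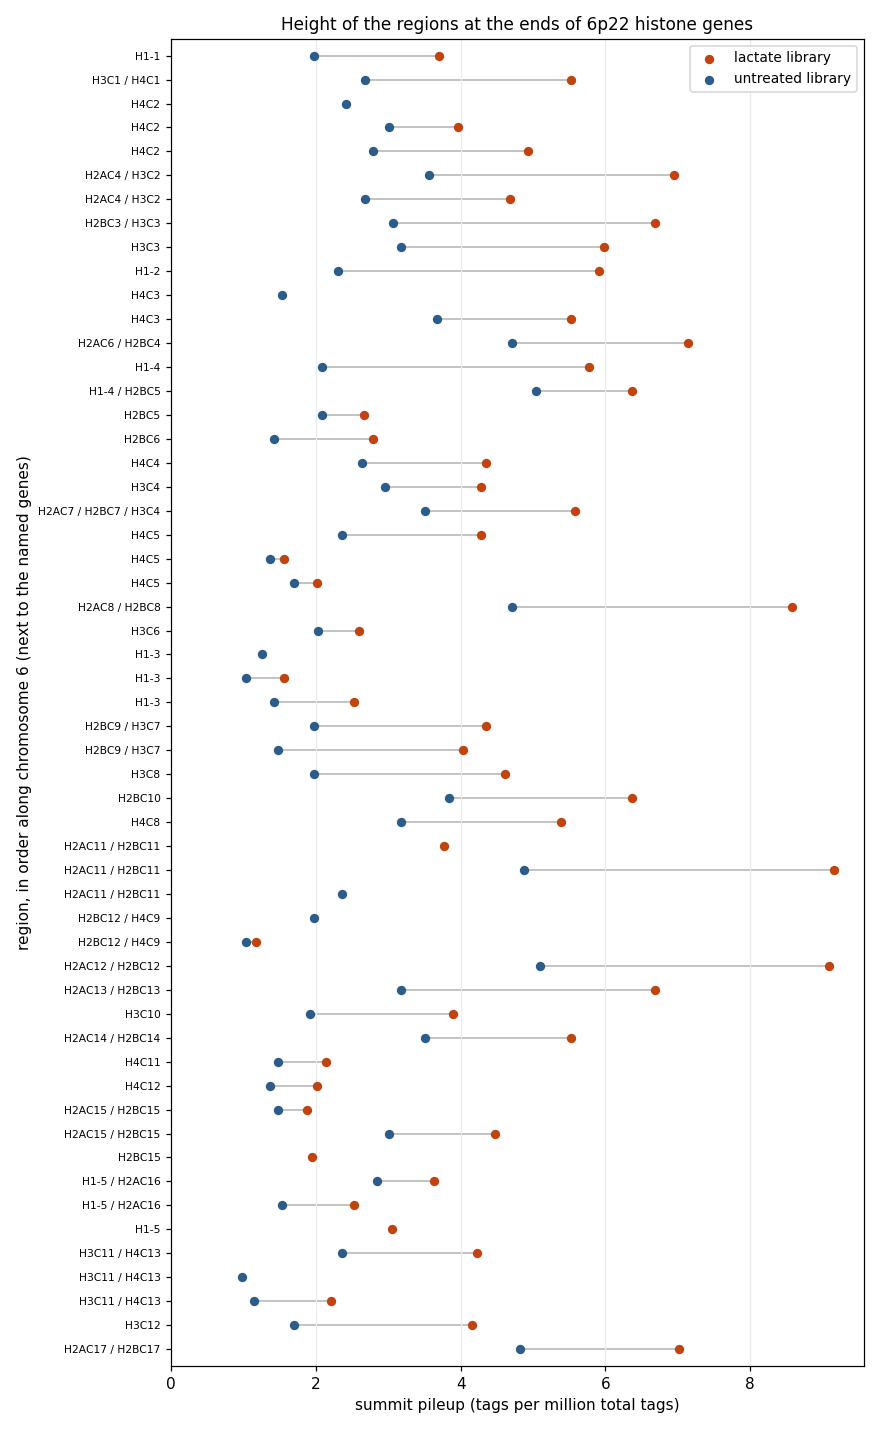
Summit pileup scaled to the total tags of its library (horizontal axis) of the 55 merged regions next to 6p22 histone genes, in order along chromosome 6, in the lactate (red) and untreated (blue) library, with a grey line joining regions listed in both. In all 46 joined regions the lactate point is to the right, and the 9 single points are regions listed in 1 library.

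The highest summits sat close to the transcription starts. For 40 regions whose genes all had a start in the promoter table, the lactate summit lay a median of 86 bp from the nearest start and the untreated summit 94 bp. Within 300 bp of a start were 31 lactate and 32 untreated summits, and those further off were all downstream. The regions were chosen within 1 kb of an end of mostly short genes, so closeness to a start is partly built in. Other gene ends were not measured in this way. Between the libraries the highest summit of a region moved by a median of 38.5 bp, and in 26 of 46 regions by at most 50 bp. Some summits lay further apart than the 200 bp extension of a tag, so their heights are read at different positions. These were at H3C1 and H4C1 (1079 bp), H4C11 (351), H2AC8 and H2BC8 (321), and H2AC11 and H2BC11 (290). The others were at H2AC15 and H2BC15 (287), H1-4 and H2BC5 (279), H2AC7, H2BC7 and H3C4 (255), and H3C3 (208). At H2BC12 the lactate summit was at -340 and the untreated summit at -207 bp from its start, on the side of H2AC12. The lactate summit therefore falls outside the H2BC12 promoter printed above, and the untreated summit within it.

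**Figure D3:**
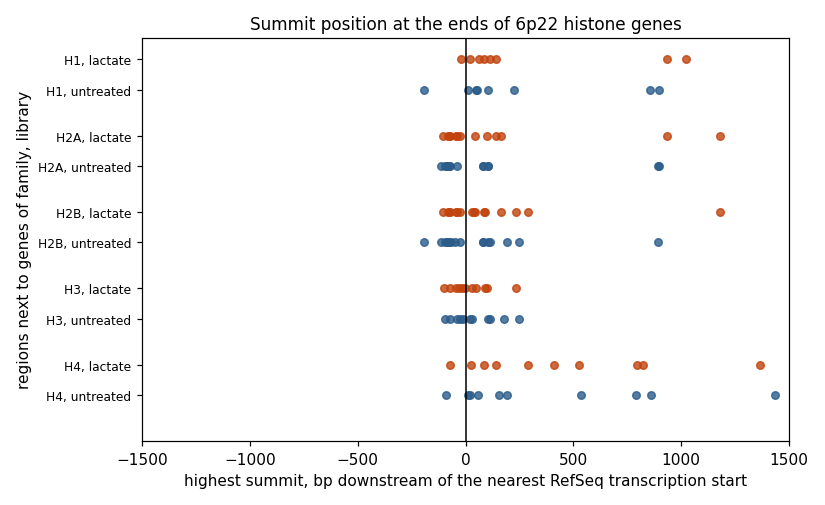
Position of the highest summit of each region relative to the nearest RefSeq start (horizontal axis, bp, positive is downstream) by histone family, for the lactate (red) and untreated (blue) library. Most points lie within 300 bp of the start, and the region at the far end of H2BC5 is outside the axis.

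Scaled to total tags, every histone region in both lists was taller in the lactate library. The ratio of lactate to untreated height ran from 1.12 to 2.78 with a median of 1.72 over the 46 regions. This direction was general, since 95.8% of all gene-end regions had a ratio above 1 and their median was 1.80. It also rests on scaling by total tags. Scaled by the summit tags of all regions in both lists, which lowers every ratio by a factor of 1.75 (0.81 on the log2 scale), 22 of the 46 histone regions (47.8%) stood above 1, against 53.2% of gene-end regions. The median was then 0.982 for histone regions and 1.03 for gene-end regions.

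Against other gene ends the histone summits gained slightly less. A ratio of 2 or more was seen in 10 of 46 histone regions (21.7%, exact binomial interval 10.9 to 36.4), against 36.5% of gene-end regions. A relative ratio divides the ratio by the median of all merged regions with similar summit tags, in 20 bins. It had a median of 0.936 over histone regions and 1.03 over gene-end regions, and was below 1 in 31 of 46 histone regions (67.4%, 52.0 to 80.5), against 45.5%. Many of the 46 regions are close neighbours, so the intervals of these counts are no test. With the tags of all summits of a region added up, the median ratio was 1.68 for histone and 1.67 for gene-end regions, and 39 of 46 histone regions (84.8%) stood above 1, against 91.6% of gene-end regions. The lower median ratio at the highest summit is thus not seen with summed summits, but other measures stayed lower. With summed summits 12 of 46 histone regions (26.1%) reached 2, against 30.9% of gene-end regions. The median relative ratio was then 0.974 for histone and 1 for gene-end regions.

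Among the 10 tallest regions, adding up the summits moved 4 ratios by over 1.5 times. The ratio became 3.14 in place of 1.52 at H2AC6 and H2BC4, and 2.75 in place of 1.45 at H2AC17 and H2BC17. It became 1.10 in place of 1.88 at H2AC11 and H2BC11, and 1.42 in place of 2.18 at H2BC3 and H3C3. A sum also depends on how many summits were listed. H2AC6 and H2BC4 had 4 lactate and 2 untreated summits, and H2AC17 and H2BC17 had 2 lactate and 1 untreated. H2AC11 and H2BC11 had 2 lactate and 3 untreated summits, and H2BC3 and H3C3 had 1 lactate and 2 untreated.

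The summit tags of histone regions made up 0.425% (0.411 to 0.440) of those at gene ends in the lactate library and 0.496% (0.477 to 0.516) in the untreated library. With a window of 500 bp the share was 0.472% in the lactate and 0.541% in the untreated library, and with 2 kb it was 0.364% in the lactate and 0.430% in the untreated library. With summed summits the shares were closer, 0.464% in the lactate and 0.498% in the untreated library. The totals include gene-end regions listed in 1 library alone, 2467 in the lactate and 794 in the untreated library.

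Adjacent regions of H1-4 had the highest ratio and one of the 5 lowest. The region at the start of H1-4, a somatic linker histone gene (chr6:26156244-26156724), had 89 lactate and 38 untreated tags. Its ratio was 2.78 (1.88 to 4.17), the highest of the 46, and its relative ratio 1.49 (1.01 to 2.24). The next region spans the other end of H1-4 and the start of H2BC5 (chr6:26157024-26158599) and had 98 lactate and 92 untreated tags. Its ratio was 1.26 (0.940 to 1.70) and its relative ratio 0.650 (0.484 to 0.874). The counting intervals of the 2 ratios did not overlap at the highest summits. In the second region, however, the lactate and untreated summits lay 279 bp apart, more than the 200 bp extension of a tag. Its ratio therefore compares different positions, as do those of the other regions with wide summit gaps named above. The summits of the first region lay 62 bp apart. With summed summits the ratio of the second region was 1.73, outside its interval, and that of the first, which has 1 summit, was unchanged at 2.78. These were the 2 histone regions whose relative ratio had an interval off 1, above in 1 of 46 (2.17%) and below in 1 of 46. The same held above 1 for 6.99% and below 1 for 5% of gene-end regions, so the count itself is no larger than at gene ends in general.

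The other high ratios were at an H2B, an H1 and 2 H3 genes. The region at the start of H2BC9 (chr6:26251489-26251981) counts for H3C7 as well only through the 1 kb window, its lactate summit lying 90 bp downstream of the H2BC9 start. It had 62 lactate and 27 untreated tags, a ratio of 2.72 (1.71 to 4.45). The linker histone gene H1-2 had 91 lactate and 42 untreated tags, with 2.57 (1.76 to 3.79). With summed summits the H1-2 ratio was 1.77, against a gene-end median of 1.67, and those of H2BC9, H3C12 and H3C8 were unchanged. H3C12 had 64 lactate and 31 untreated tags, with 2.45 (1.57 to 3.89). H3C8 had 71 lactate and 36 untreated tags, with 2.34 (1.54 to 3.59). All of these intervals include the gene-end median of 1.80, apart from that of the H1-4 region.

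The low ratios were mostly at weak regions of H4 genes. The region of H4C9, which is also the far end of the long H2BC12 model (chr6:27139240-27140083), had 18 lactate and 19 untreated tags, a ratio of 1.12 (0.556 to 2.26), which turned to 0.688 with summed summits. Of the 2 regions downstream of H4C5, the nearer had 24 lactate and 25 untreated tags, with 1.14 (0.622 to 2.08), and the further had 31 tags in each library, with 1.18 (0.697 to 2.02), which likewise turned to 0.680. One of the regions of H2AC15 and H2BC15 (chr6:27837037-27837570) had 29 lactate and 27 untreated tags, with 1.27 (0.727 to 2.23). Its lactate and untreated summits lay 287 bp apart. All 4 intervals include the gene-end median of 1.80.

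By family the median ratio was highest at H3 genes. Regions next to H3 genes had a median of 1.95 (15 regions), H1 genes 1.71 (8), H2B genes 1.63 (18), H2A genes 1.62 (14) and H4 genes 1.58 (14). A region next to 2 families counts in both. Without single-summit regions of 250 bp or less, H4 genes had 1.65, above H2A and H2B genes, whose medians were 1.62 and 1.63. The ranges of all families overlapped, with H3 regions from 1.28 to 2.72 and H4 regions from 1.12 to 2.06. A ratio of 2 or more was seen in 7 of 15 H3 regions and 1 of 14 H4 regions, against 36.5% at gene ends. The H3 region with 2.72 has its lactate summit 90 bp downstream of the H2BC9 start. That of H2BC3 and H3C3 has its lactate summit 32 bp downstream of the H2BC3 start, with 1.42 for summed summits. The region of H3C1 and H4C1, with 2.06, counts in both families and compares summits 1079 bp apart. The rest were at H3C7, H3C8, H3C10 and H3C12. By median lactate height the order was H2A (94.5 tags), H2B (92), H3 (67), H4 (63) and H1 (56.5). By median untreated height it was H2A (64 tags), H2B (61), H3 and H4 (43 each) and H1 (37).

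**Figure D4:**
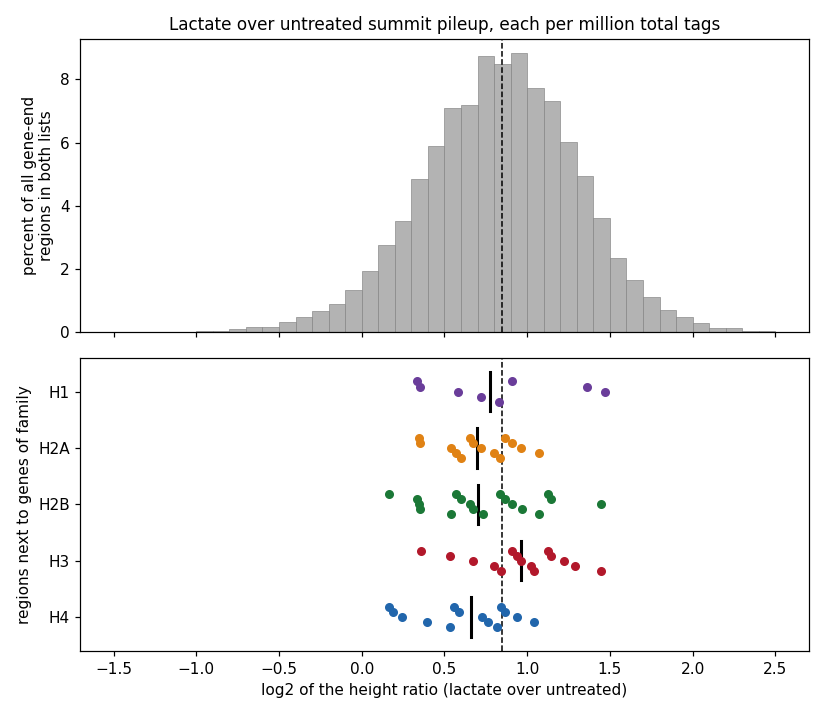
Top, percent of all 12565 gene-end regions in both lists by log2 of the lactate over untreated height ratio (horizontal axis, scaled to total tags). Bottom, the histone regions by family, 1 point a region, with a bar at the family median and a dashed line at the gene-end median ratio of 1.80; the H3 bar lies right of the line and the other family bars left of it.

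The surroundings of the histone regions were rich in tags. The authors' peak caller measured the local background over a 10 kb window, and the tags in that window can be recovered as whole numbers from pileup and fold enrichment. The 46 histone regions had a median of 625.5 tags in this window in the lactate library (143 to 1109) and 462.5 in the untreated library (149 to 805). Gene-end regions had medians of 208 lactate and 202 untreated tags. The histone median of both libraries together exceeded 92.8% of gene-end regions. Neighbouring windows overlap, so the 46 regions amount to 22 separate windows of 10 kb.

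Fold enrichment, the pileup over this local background, was accordingly low although the regions were tall. Its median was 5.39 in the lactate and 4.89 in the untreated library for histone regions, against 9.29 in the lactate and 6.25 in the untreated library for gene-end regions. Below those medians lay 42 of 46 histone regions in the lactate and 38 of 46 in the untreated library. Replication-dependent histone genes outside 6p22 had median folds of 5.23 in the lactate and 4.41 in the untreated library over 7 regions. The region of H3C12 had a fold of 2.92 in the lactate and 1.95 in the untreated library, with 1063 lactate and 772 untreated tags in its 10 kb window. The small isolated region at the start of H3C6 had a fold of 10.6 in the lactate and 9.55 in the untreated library, from 40 lactate and 37 untreated tags, with 143 lactate and 149 untreated tags in its window. Ranking by fold therefore places histone regions low. The lactate list was then cut by fold to the 98152 regions of the untreated list, which stayed whole. After this cut, 42 of 55 histone genes had a region in both libraries, against 58.6% of all protein-coding genes. In the untreated library alone 8 of 55 had one, against 4.01% of all. The cut could only remove lactate regions, and no histone gene had been in the lactate library alone. The 0 of 55 in the lactate library alone, against 3.48% of all, was therefore fixed beforehand.

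**Figure D5:**
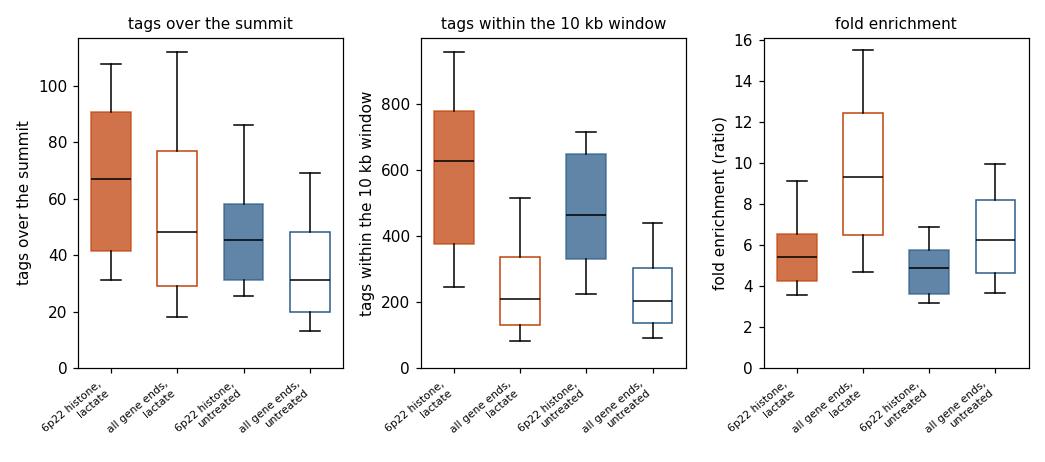
Tags over the summit, tags within the 10 kb window of the peak caller and fold enrichment (vertical axes) for the 46 histone regions (filled) and all 12565 gene-end regions in both lists (open), in the lactate (red) and untreated (blue) library. Boxes span the middle 50%, bars inside are medians and whiskers reach the 10th and 90th percentiles; histone boxes are higher in the first and second panels and lower in the third.

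Over 10 kb the histone clusters gained more than gene ends in general, the reverse of the order at the highest summits. The ratio of lactate to untreated tags in the window, scaled to total tags, ran from 1.10 to 1.91 with a median of 1.49 over the histone regions. Gene-end regions had a median of 1.23 and a middle 50% from 1.07 to 1.40, and 30 of the 46 histone regions lay above that range. Set against regions with similar window tags, in 20 bins, the median was 1.06 over histone regions, and 34 of 46 (73.9%) were above 1, against 48.8% of gene-end regions. The gene-end median of this relative ratio was 1.

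Single windows can be read with more precision than summits. The window of H2BC9 and H3C7 with the highest ratio (around the region chr6:26249671-26251005) had 588 lactate and 364 untreated tags, a ratio of 1.91 (1.68 to 2.19). That of H2AC8 and H2BC8 had 1042 lactate and 694 untreated tags, with 1.78 (1.61 to 1.96). Around the start of H1-4 there were 936 lactate and 690 untreated tags, with 1.61 (1.45 to 1.78), and around the next region, with the low summit ratio, 900 lactate and 668 untreated tags, with 1.60 (1.44 to 1.77). Both H1-4 windows largely cover the same DNA, and the contrast between the summits is not seen at this scale. The lowest ratios were at H2BC5, far from its start, with 171 lactate and 185 untreated tags (1.10, 0.884 to 1.36), and at H3C6, with 1.14 (0.898 to 1.44).

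A few regions were listed in 1 library alone. These were 3 of 55 in the lactate library (5.45%, 1.14 to 15.1), against 15.6% of gene-end regions, and 6 of 55 in the untreated library (10.9%, 4.11 to 22.2), against 5.02%. The lactate-only regions lay beyond H2BC11 with 58 tags, at the start of H1-5 with 47 and beyond H2BC15 with 30. The untreated-only regions lay beyond H4C2 with 44 tags, beyond H2AC11 with 43, before H4C9 with 36 and beyond H1-3 with 23. The rest lay on the low-coordinate side of H4C3 with 28 tags and between H3C11 and H4C13 with 18. Every region of both sets had more tags than the medians of 15 lactate and 14 untreated tags of gene-end regions listed in 1 library alone. That comparison does not allow for local background, which was 20.5 tags at the region beyond H2BC11. Fold enrichment in the 2 sets ran from 2.74 to 4.97. Gene-end regions in both lists had medians of 9.29 in the lactate and 6.25 in the untreated library. Each histone region listed in 1 library lay beside another region of the same gene, so that no gene changed its listing. H1-5, a somatic linker histone gene, had its lactate-only summit 139 bp downstream of its start (chr6:27867173-27867687). In the untreated library no region overlapped H1-5, and the nearest lay 3 bp beyond its far end. Its listing in both libraries thus rests on the 1 kb window.

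The 21 non-histone neighbours of the stretch had fewer tags around their regions. They include butyrophilin genes, which regulate T cells, sodium phosphate transporters and zinc finger genes. Regions in both libraries were found at 15 of them, against 61.8% of all protein-coding genes. BTN1A1 had one in the lactate library alone, and 5 had none, among them PRSS16 and the olfactory receptor gene OR2B2. Their 18 regions in both lists had a median ratio of 1.62 at the summit and 1.12 in the 10 kb window, from medians of 138.5 lactate and 165.5 untreated window tags. The difference in window ratio was not tested.

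Outside 6p22, 16 replication-dependent histone genes were listed. Both libraries had a region at 8 of them, the lactate library alone at H4C15, and neither at 7. Among the 7 are H3C14 and H3C15, near-identical copies to which uniquely mapped tags are hard to assign. The 7 regions in both lists had a median summit ratio of 1.52, and the tallest, at H2AC20, H2AC21 and H2BC21, had 140 lactate and 82 untreated tags. Of the genes of histones made outside S phase, 10 of 16 had a region in both libraries, near the 61.8% of all genes. They had a median summit ratio of 2.12 over 10 regions. Among these, H2AZ2, which encodes an H2A.Z variant, had 189 lactate and 92 untreated tags, a ratio of 2.43 (1.89 to 3.16). Its relative ratio was 1.28. MACROH2A1 had 40 lactate and 15 untreated tags, with 3.16 (1.71 to 6.16).

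Genes for factors of histone gene expression were open as well. Both libraries had a region at 26 of 27, against 61.8% of all protein-coding genes. CCNE1, the cyclin E1 gene, had one in the lactate library alone. NPAT, the cyclin E-CDK2 substrate that activates histone genes, had 64 lactate and 35 untreated tags, a ratio of 2.17 (1.41 to 3.37). HINFP, which binds H4 promoters, had 57 lactate and 23 untreated tags, with 2.94 (1.78 to 4.99). SLBP, which binds the stem-loop of histone messages, had 55 lactate and 22 untreated tags at its upper-coordinate end, with 2.96 (1.78 to 5.10). Its other end had 8 lactate and 12 untreated tags. CASP8AP2, a histone locus body component, had 81 lactate and 74 untreated tags, with 1.30 (0.935 to 1.80). POU2F1, the octamer-binding factor, had 62 lactate and 59 untreated tags, with 1.25 (0.858 to 1.81). The 32 regions of this list in both libraries had a median ratio of 1.85, and 14 (43.8%) reached 2, against 36.5% at gene ends.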

How the data were processed

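Libraries were grouped by the treatment labels, 1 given 10 mM lactate for 24 h and 1 untreated. BWA 0.7.12, fastp 0.20.0, MACS2 2.1.0 and the build hg38 are listed in the submitters' processing notes, but the file headers give MACS 2.2.7.1. Peaks were called by the authors in each library without a control, per the file headers, with a q-value threshold of 0.05, a shift of 100 bp and an extension of 200 bp, from files named as uniquely mapped and deduplicated. The deposited pileup is an unscaled signal of extended tags over a summit. The deposited fold enrichment is the ratio of pileup to local background, with 1 added to each. Starts, ends, widths and summits were deposited as positions in bp.

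The members and gene lists were chosen with earlier results of these data known. Chromosomes 1 to 22 and X were used, with gene ends from a RefSeq table (GRCh38.p14). Regions overlapping by at least 1 bp were merged, each with its highest summit per library. Tags in the 10 kb background window were recovered as background divided by the extension over the window; all 111740 lactate and 106442 untreated summits above the genome background gave whole numbers within 0.02 tags. A few gene-end regions at the genome background have fewer tags than so computed, but no histone region does. Ratio intervals are exact conditional Poisson intervals. Uniquely mapped tags may undercount near-identical histone genes, which was not tested. The code was tested on simulated lists. Named genes are all members with a region in 1 library or neither, the 10 tallest regions, the 5 highest and 5 lowest ratios, the testis genes and 5 expression factors; others were named after their values were seen. No protein sequences were used here. Python 3.11.15, numpy 2.4.6, pandas 2.3.3 and scipy 1.17.1 were used.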

Additional observations from a re-analysis of the deposited data

How the results depend on the processing

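No paired analysis was possible because the lactate and untreated groups have a single library each, and none could be left out. The 10 kb window was added after seeing the data. Of 76 alternative values of the main results, 56 stayed within the 95% interval of the reported value (for medians, the interval over regions), or for counts within 1.5 times, and 20 moved. Of 90 for named regions, 68 stayed and 22 moved. Scaling by summit tags of regions in both lists gave medians of 0.982 for all histone regions, 0.980 for H1, 0.927 for H2A, 0.929 for H2B, 1.11 for H3 and 0.902 for H4. It gave 0.927 for neighbours, 0.871 for replication-dependent histone genes elsewhere, 1.21 for replication-independent ones, and 0 histone regions at 2-fold. Tags within 10 kb gave a median ratio of 1.49 and a relative ratio of 1.06. Without the testis genes, 2 genes had a region in neither library. The share of gene-end tags in the lactate library was 0.472% at 500 bp, 0.364% at 2 kb, 0.443% without single-summit regions of 250 bp or less and 0.464% over summed summits. In the untreated library it was 0.541%, 0.430% and 0.517% in the first 3 of these settings. The cause of these moves was not tested. With summed summits the ratio was 3.14 at H2AC6 and H2BC4, 2.75 at H2AC17 and H2BC17, 1.10 at H2AC11 and H2BC11, 1.42 at H2BC3 and H3C3, and 1.73 at H1-4 and H2BC5. It was 0.680 at the second region downstream of H4C5 and 0.688 at H4C9 and H2BC12, where the direction turned. Without narrow regions the H4 median was 1.65 and no longer the lowest family. Where summits had to reach a −log10 p of 7, 47 genes had a region in both libraries, 2 in the lactate and 1 in the untreated library alone. Depth limits single regions: even the tallest, with 140 lactate and 93 untreated tags, had a ratio interval of 1.36 to 2.34.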
